A study of Mus musculus with 10 samples.

Results

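A set of 10 genes of myeloid cells was followed across the arrays. Of these, 7 are made by developing granulocytes (S100a8, S100a9, Mpo, Elane, Prtn3, Camp and Ngp). The other 3 are grouped here as macrophage genes (Lyz2, Cd52 and Mrc1), though Lyz2 and Cd52 are also made by other leukocytes. The 10 genes were listed by name with earlier results of these data known. A count of them called is thus a description beside the share over all genes. All 10 were measured, out of 18193 genes with a single-gene probe set. Each was read by 1 probe set. All 10 passed the filter on dim genes, as did 14696 genes in all.

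The RNA came from mouse embryos at 15 dpc (days post coitum) and was hybridised to Affymetrix arrays. There were 5 groups of 2 samples: Sox17+/- gallbladder and wild type gallbladder of the B6 strain, and Sox17+/- gallbladder, wild type cystic duct and wild type gallbladder of the ICR strain. The Sox17+/- embryos carry 1 working copy of Sox17, an endoderm transcription factor, and the labels do not describe the allele further. The labels number the ICR samples 1 and 2 and the B6 samples 3 and 4, and do not say whether a sample is 1 embryo or a pool. The series describes them as biological replicates, and p-values measure only the spread between them.

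Neutrophils are built in steps. Early precursors fill primary granules with myeloperoxidase and serine proteases, later ones fill secondary granules with antimicrobial peptides, and the calcium-binding S100 proteins accumulate in the cytosol. In the mouse embryo the liver is the main site of blood formation at this age, and the gallbladder and cystic duct lie beside it. Macrophages of embryonic tissues take up residence early and are known for the mannose receptor, encoded by Mrc1.

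The members include neighbouring genes. S100a8 and S100a9 lie next to each other on chromosome 3, and Prtn3 and Elane on chromosome 10, with 0 protein-coding genes between them in each pair. Camp and Ngp are both on chromosome 9, with 8 protein-coding genes between them. Sequences of 250 bases before the gene start were available from RefSeq (GRCm38.p6) for 9 of the 10 genes. Those of both adjacent pairs are shown because each pair can be compared within 1 locus, and that of Mrc1 because its signal ran opposite to theirs. Capitals mark the core of the myeloid factor PU.1 (GAGGAA, or TTCCTC on the other strand) and the core of the C/EBP factors (TTNNGNAA, or TTNCNNAA on the other strand).
S100a8 (chr3:90668821-90669070, plus strand): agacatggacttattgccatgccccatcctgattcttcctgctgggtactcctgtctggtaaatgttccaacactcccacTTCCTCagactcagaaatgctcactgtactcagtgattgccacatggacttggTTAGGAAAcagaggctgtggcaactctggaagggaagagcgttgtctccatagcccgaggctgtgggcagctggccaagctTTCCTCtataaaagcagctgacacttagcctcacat
S100a9 (chr3:90695722-90695971, minus strand): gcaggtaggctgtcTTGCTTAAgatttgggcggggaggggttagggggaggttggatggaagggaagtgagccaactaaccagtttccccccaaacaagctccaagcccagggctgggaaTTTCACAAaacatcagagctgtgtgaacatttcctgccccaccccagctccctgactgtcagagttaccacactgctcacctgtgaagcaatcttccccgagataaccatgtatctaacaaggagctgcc
Prtn3 (chr10:79879417-79879666, plus strand): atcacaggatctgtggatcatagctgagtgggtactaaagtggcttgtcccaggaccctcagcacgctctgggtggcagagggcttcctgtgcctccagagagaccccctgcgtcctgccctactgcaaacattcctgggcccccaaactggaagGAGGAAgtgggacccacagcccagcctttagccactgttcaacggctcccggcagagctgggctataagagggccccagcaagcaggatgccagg
Elane (chr10:79886062-79886311, plus strand): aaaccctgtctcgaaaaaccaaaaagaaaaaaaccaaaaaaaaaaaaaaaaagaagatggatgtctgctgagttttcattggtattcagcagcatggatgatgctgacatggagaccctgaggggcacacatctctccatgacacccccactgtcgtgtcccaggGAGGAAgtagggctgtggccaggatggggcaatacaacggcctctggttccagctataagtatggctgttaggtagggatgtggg
Mrc1 (chr2:14229164-14229413, plus strand): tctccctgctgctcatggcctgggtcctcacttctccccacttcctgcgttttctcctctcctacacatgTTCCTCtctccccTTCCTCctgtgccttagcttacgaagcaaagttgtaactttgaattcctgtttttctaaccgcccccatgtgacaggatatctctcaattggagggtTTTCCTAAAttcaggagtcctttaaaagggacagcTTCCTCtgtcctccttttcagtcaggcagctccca

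The PU.1 core was present in the sequences of S100a8, Mpo and Mrc1 more than once and in those of Elane and Prtn3 once, against 23.3% of all 32851 promoter sequences of that length with any match. In Elane it spans bases -85 to -80 and in Prtn3 bases -95 to -90, counted from the gene start. The C/EBP core was present in S100a8, S100a9, Ngp, Lyz2 and Mrc1, against 36.8% of all promoter sequences. The 2 C/EBP matches of Mrc1 overlap, and the Camp sequence held neither core. Mrc1 held 3 PU.1 matches. A match describes these letters only.

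Before the results, the samples themselves differed. Sox17 ranged over 7.91 to 8.03 log2 in the B6 Sox17+/- gallbladders and 9.04 to 9.29 in the B6 wild type gallbladders. In ICR it ranged over 7.65 to 7.90 in the Sox17+/- gallbladders, 7.63 to 8.28 in the cystic ducts and 9.24 to 9.52 in the wild type gallbladders. It was lower in every Sox17+/- gallbladder than in every wild type one, as its labels have it. Between the 2 cystic duct samples, 3565 genes differed by more than 1 log2 unit, against 18 to 608 genes between the samples of each other group. The interquartile range of the deposited values was 2.75 log2 in cystic duct 2 and 3.46 to 3.85 in the other samples. Across all 10 genes, levels are log2 signals after quantile normalization, and a level is compared only with the same gene in other samples. In whole-tissue RNA, fewer cells of a type and less RNA per cell cannot be told apart.

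**Figure D1:**
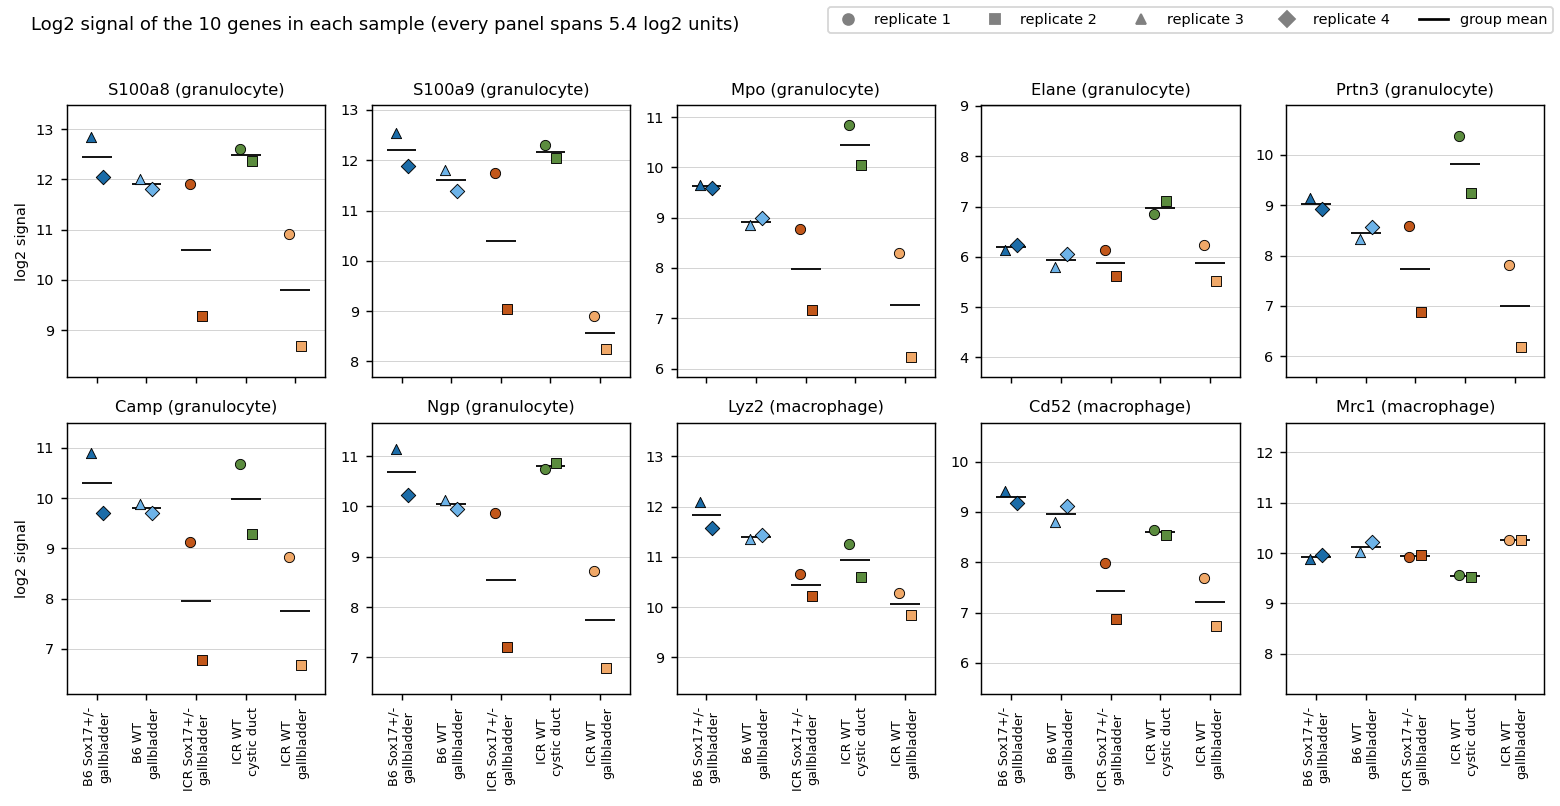
Log2 signal (vertical axis) of each of the 10 genes in every sample, by group (horizontal axis); points are samples, their shape gives the replicate number, and lines are group means. ICR wild type gallbladder 2 is the lowest sample for all 7 granulocyte genes, and Mrc1 spans 0.74 log2 units over the 10 samples, against 1.59 to 4.61 for the granulocyte genes.

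For each of the 7 granulocyte genes the 4 ICR gallbladders spanned a wider range than the 4 B6 gallbladders, and ICR wild type gallbladder 2 was the lowest of the 10 samples. S100a8 and S100a9 encode the subunits of calprotectin, an abundant cytosolic protein of neutrophils. S100a8 read 12.85 and 12.05 in the B6 Sox17+/- gallbladders and 12.01 and 11.80 in the B6 wild type gallbladders. Among the ICR samples it read 11.91 and 9.28 in the Sox17+/- gallbladders, 12.61 and 12.36 in the cystic ducts and 10.92 and 8.69 in the wild type gallbladders. After normalization both cystic ducts and 1 B6 Sox17+/- gallbladder were the highest samples, and the ICR gallbladders numbered 2 were the lowest. As deposited, cystic duct 2 read 11.96 for S100a8, below B6 wild type gallbladder 3 (12.03). S100a9 read 12.54 and 11.88 in the B6 Sox17+/- gallbladders and 11.81 and 11.38 in the B6 wild type gallbladders. The ICR samples read 11.74 and 9.05 in the Sox17+/- gallbladders, 12.30 and 12.04 in the cystic ducts and 8.90 and 8.24 in the wild type gallbladders. For both genes 1 ICR Sox17+/- gallbladder reached the B6 wild type range, so the strains overlapped.

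After normalization the adjacent pair did not rank the ICR gallbladders alike. ICR Sox17+/- gallbladder 2 lay below ICR wild type gallbladder 1 for S100a8 (9.28 and 10.92) and above it for S100a9 (9.05 and 8.90). As deposited, it lay below for both genes (9.28 and 11.14 for S100a8, 9.06 and 9.14 for S100a9). The S100a8 probe set is of the type that can also detect closely related transcripts.

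Mpo, Elane and Prtn3 encode the primary granule enzymes myeloperoxidase, neutrophil elastase and proteinase 3. Mpo read 9.65 and 9.59 in the B6 Sox17+/- gallbladders and 8.85 and 8.998 in the B6 wild type gallbladders. In ICR it read 8.78 and 7.17 in the Sox17+/- gallbladders, 10.84 and 10.04 in the cystic ducts and 8.31 and 6.22 in the wild type gallbladders. Both cystic ducts lay above all 8 gallbladders after normalization, and all 4 B6 gallbladders above all 4 ICR ones. As deposited, cystic duct 2 read 9.53 for Mpo, below both B6 Sox17+/- gallbladders (9.66 and 9.57). Prtn3 read 9.13 and 8.93 in the B6 Sox17+/- gallbladders and 8.34 and 8.56 in the B6 wild type gallbladders. Among the ICR samples it read 8.59 and 6.87 in the Sox17+/- gallbladders, 10.39 and 9.24 in the cystic ducts and 7.80 and 6.18 in the wild type gallbladders. Again both cystic ducts were the highest after normalization, while ICR Sox17+/- gallbladder 1 lay within the B6 range. As deposited, cystic duct 2 read 8.73 for Prtn3, below both B6 Sox17+/- gallbladders (9.14 and 8.92). Elane varied least of the 7, over 1.59 log2 units. It read 6.14 and 6.24 in the B6 Sox17+/- gallbladders and 5.80 and 6.06 in the B6 wild type gallbladders. The ICR samples read 6.13 and 5.62 in the Sox17+/- gallbladders, 6.84 and 7.11 in the cystic ducts and 6.24 and 5.51 in the wild type gallbladders. Only the cystic ducts stood apart, and the gallbladder groups of both strains overlapped.

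Camp, encoding cathelicidin, and Ngp, encoding neutrophilic granule protein, belong to the secondary granules. Camp read 10.90 and 9.71 in the B6 Sox17+/- gallbladders and 9.88 and 9.71 in the B6 wild type gallbladders. In ICR it read 9.13 and 6.78 in the Sox17+/- gallbladders, 10.68 and 9.29 in the cystic ducts and 8.82 and 6.69 in the wild type gallbladders. The cystic ducts lay within the B6 range or below it. Ngp read 11.14 and 10.23 in the B6 Sox17+/- gallbladders and 10.14 and 9.94 in the B6 wild type gallbladders. Among the ICR samples it read 9.87 and 7.21 in the Sox17+/- gallbladders, 10.74 and 10.86 in the cystic ducts and 8.71 and 6.79 in the wild type gallbladders. For both genes every B6 gallbladder exceeded every ICR gallbladder.

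Lyz2, Cd52 and Mrc1 differed in which samples were highest and lowest. Lyz2 encodes lysozyme, made by macrophages and also by neutrophils, and Cd52 encodes a small surface glycoprotein of leukocytes. Lyz2 read 12.09 and 11.57 in the B6 Sox17+/- gallbladders and 11.36 and 11.43 in the B6 wild type gallbladders. The ICR samples read 10.66 and 10.22 in the Sox17+/- gallbladders, 11.26 and 10.59 in the cystic ducts and 10.28 and 9.84 in the wild type gallbladders. The B6 gallbladders were the highest 4 samples. The 2 cross-hybridizing probe sets of Lyz1, a near-identical paralog, were also higher in all 4 B6 gallbladders than in all 4 ICR ones, while another Lyz1 probe set stayed at 3.36 to 4.14 in all 10 samples. Signal from the 2 genes may not be separable. Cd52 read 9.42 and 9.17 in the B6 Sox17+/- gallbladders and 8.81 and 9.12 in the B6 wild type gallbladders. In ICR it read 7.99 and 6.88 in the Sox17+/- gallbladders, 8.64 and 8.55 in the cystic ducts and 7.69 and 6.73 in the wild type gallbladders. Its B6 gallbladders were again all above the cystic ducts, which were above the ICR gallbladders. Mrc1 read 9.87 and 9.96 in the B6 Sox17+/- gallbladders and 10.01 and 10.22 in the B6 wild type gallbladders. Among the ICR samples it read 9.92 and 9.96 in the Sox17+/- gallbladders, 9.57 and 9.52 in the cystic ducts and 10.26 and 10.25 in the wild type gallbladders. The cystic ducts were its lowest samples and the ICR wild type gallbladders its highest.

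Group means of neighbouring rank were often within the spread of their samples. Mpo averaged 10.44 ± 0.56 in cystic ducts, 9.62 ± 0.05 in B6 Sox17+/-, 8.92 ± 0.11 in B6 wild type, 7.98 ± 1.14 in ICR Sox17+/- and 7.27 ± 1.47 in ICR wild type gallbladders (SD, n = 2 each). The B6 wild type and ICR Sox17+/- means differed by less than the spread of the ICR samples. The 2 ICR gallbladder means of Mpo also lay within it of each other. S100a9 averaged 10.40 ± 1.91 in ICR Sox17+/- and 8.57 ± 0.46 in ICR wild type gallbladders (SD, n = 2 each), and both Sox17+/- samples lay above both wild type ones. As deposited, Sox17+/- gallbladder 2 lay below wild type gallbladder 1 (9.06 and 9.14).

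The first comparison was between regions, in ICR wild type embryos. Of the 10 genes, 4 rose in cystic duct relative to gallbladder (limma, Benjamini-Hochberg adjusted p under 0.05), against 5.73% of all genes tested. Primary granule genes were 3 of the 4. S100a9 rose 12.1-fold (log2 change 3.60, SE 0.73, adjusted p = 0.0175) and Mpo rose 9.02-fold (3.17, SE 0.70, adjusted p = 0.0238). Prtn3 rose 7.07-fold (2.82, SE 0.67, adjusted p = 0.031) and Elane rose 2.14-fold (1.10, SE 0.30, adjusted p = 0.0457). Mrc1 fell, 1.64-fold lower in cystic duct (-0.71, SE 0.12, adjusted p = 0.00909), and it was the 1 gene of 10 called lower, against 8.61% of all genes.

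The other 5 genes missed the threshold in the region comparison. Ngp had a log2 change of 3.05 (SE 0.86, adjusted p = 0.052), Cd52 1.39 (SE 0.41, adjusted p = 0.0575) and Lyz2 0.87 (SE 0.28, adjusted p = 0.0768). S100a8 had 2.68 (SE 0.90, adjusted p = 0.0849) and Camp 2.23 (SE 0.93, adjusted p = 0.145). After normalization both cystic ducts nonetheless lay above both gallbladders for 9 of the 10 genes, against 21.7% of all genes, and the genes are not independent of each other. As deposited, cystic duct 2 lay below ICR wild type gallbladder 1 for Camp (8.78 and 9.06) and Lyz2 (10.08 and 10.51). The median log2 change was 2.82 over the 7 granulocyte genes and 0.87 over the 3 macrophage genes (the value of Lyz2), and -0.03 over all genes. The macrophage median was 0.53 without cystic duct 1 and 0.48 on the values as deposited. With 1 cystic duct left out, that group has 1 sample and adds no spread to the fit, so only changes are given. Without cystic duct 1 or 2 they were 3.47 and 3.73 for S100a9, 2.78 and 3.57 for Mpo, 2.25 and 3.39 for Prtn3. For Mrc1 they ran over -0.73 to -0.68 with any 1 of the 10 samples left out. Without ICR wild type gallbladder 2 all of the calls but that of Mrc1 missed the threshold. S100a9 also missed the threshold without ICR wild type gallbladder 1 (adjusted p = 0.0588), Mpo without either B6 wild type gallbladder (0.0505 each), Prtn3 without any 1 of the 4 B6 gallbladders (0.0604 to 0.0626), and Elane without any 1 of 8 samples (0.06 to 0.218). On the values as deposited Elane and Prtn3 missed it (0.19 and 0.0642). With the 4 compared samples alone, or with array weights, no gene of the array passed (Mrc1 at adjusted p = 0.234 and 0.37).

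Genes of other cell types moved with the region, in which 14.3% of all genes were called in either direction. Of 9 erythroid genes measured, 8 rose in cystic duct, with a median log2 change of 3.27. Their mean level was 9.80 to 11.44 in cystic ducts and 6.74 to 8.20 in ICR wild type gallbladders. The erythroid factors Gata1 (3.27, adjusted p = 0.00846) and Klf1 (3.89, adjusted p = 0.00924) were among them. Of 17 hepatocyte genes, 15 rose, with a median of 3.49 and mean levels of 12.32 to 12.77 in cystic ducts and 9.23 to 9.49 in gallbladders. Hnf4a, a liver transcription factor, rose by 1.94 (adjusted p = 0.00143) and Apoh, a plasma protein gene, by 4.29 (adjusted p = 0.00201). The part of these cell types in the granulocyte result was not tested. Of 10 genes of gallbladder and biliary epithelium, Sox17 (-1.43, adjusted p = 0.00867) and the duct keratin Krt19 (-1.15, adjusted p = 0.00994) were lower in cystic duct and the keratin Krt18 was higher (0.59, adjusted p = 0.0292).

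Of 16 other granulocyte genes measured, 5 rose in cystic duct and 1 fell, with a median of 0.87, beside the 5.73% of all genes that rose and the 8.61% that fell. Hp, encoding haptoglobin, which hepatocytes also make, rose by 3.31 (adjusted p = 0.0112) and the ficolin gene Fcnb by 1.40 (adjusted p = 0.0227). Anxa1, encoding annexin A1, fell by 1.25 (adjusted p = 0.00854) and is expressed by epithelia too. Of 28 other macrophage genes, 3 rose and 1 fell, which is near the 14.3% of all genes called, and their median was 0.04. The scavenger receptor gene Marco (3.31, adjusted p = 0.00211) and Cd5l (3.10, adjusted p = 0.00583), both known from liver macrophages, rose, while the transcription factor gene Maf fell by 1.09 (adjusted p = 0.0124). Among 13 pan-leukocyte genes, 8 had changes above 0 and 5 below 0 by region, with a median of 0.50. Of these, 2 passed in limma. Spi1, which encodes PU.1, rose by 1.03 (adjusted p = 0.0161) and Rac2, a GTPase of blood cells, by 1.27 (adjusted p = 0.0332). Ptprc, the gene of the leukocyte antigen CD45, had -0.36 (adjusted p = 0.538).

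**Figure D2:**
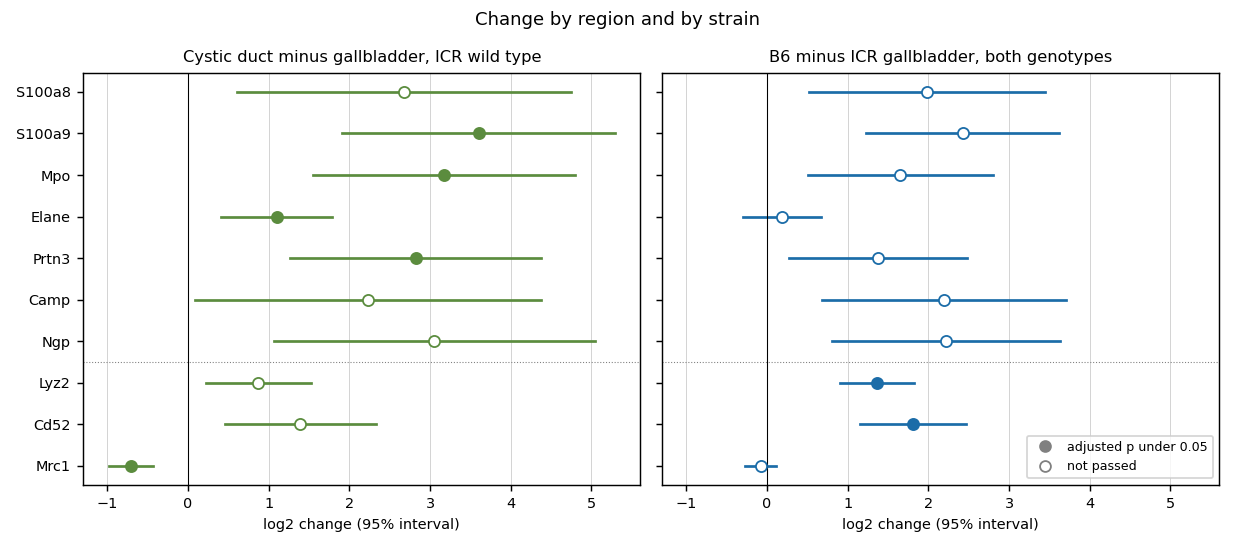
Log2 change (horizontal axis) of each gene for cystic duct minus gallbladder (left) and B6 minus ICR gallbladder (right), with 95% intervals from limma; filled points passed an adjusted p of 0.05. S100a9, Mpo, Elane, Prtn3 and, downward, Mrc1 are filled on the left, and Lyz2 and Cd52 on the right; a dotted line parts granulocyte from macrophage genes.

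The second comparison was between strains, over the gallbladders of both genotypes. Here Lyz2 and Cd52 were the genes that rose in B6, 2 of the 10, against 0.408% of all genes tested. Lyz2 was 2.58-fold higher in B6 than in ICR (log2 change 1.37, SE 0.20, adjusted p = 0.0208). Cd52 was 3.50-fold higher (1.81, SE 0.29, adjusted p = 0.0275). Mrc1 had a change of -0.08 with a 95% interval of -0.27 to 0.12 (adjusted p = 0.817).

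Of the 7 granulocyte genes, 6 had changes above 1 log2 unit, all 7 had wider errors than Lyz2, and none passed in this fit. S100a9 had a log2 change of 2.42 (SE 0.52, adjusted p = 0.0712), Ngp 2.22 (SE 0.61, adjusted p = 0.154) and Camp 2.20 (SE 0.66, adjusted p = 0.193). S100a8 had 1.98 (SE 0.63, adjusted p = 0.222), Mpo 1.65 (SE 0.50, adjusted p = 0.195) and Prtn3 1.38 (SE 0.48, adjusted p = 0.269). Elane had 0.18, with an interval of -0.30 to 0.67 (adjusted p = 0.841). S100a9 was nearest to the threshold and crossed it under other settings. It passed over every probe set (adjusted p = 0.0336), with the mean of probe sets (0.0499) and with gallbladders only (0.0372). With array weights it passed too (0.00795), as did 5 other granulocyte genes (0.0215 to 0.0362). In that order these settings called 1434 of 26443 probe sets, 503 of 14180 genes, and 1311 and 1602 of 14696 genes. The main fit called 198. Of 19 fits, S100a9 passed in 10, Lyz2 in 10 and Cd52 in 12. These fits share samples and are not separate checks. Those without a cystic duct come close to the fit with gallbladders only, and the splits by ICR number were chosen after the values were seen. At an unadjusted p under 0.05, 6 of the 7 passed, against 1872 of 14696 genes (12.7%). All 4 B6 gallbladders lay above all 4 ICR gallbladders for 5 of the 10 genes (Mpo, Camp, Ngp, Lyz2 and Cd52), against 12.5% of all genes. Here too the genes are not independent of each other. The median log2 change was 1.98 over the granulocyte genes, 1.37 over the macrophage genes (the value of Lyz2) and 0.05 over all genes.

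The ICR gallbladders carried most of the spread behind these errors. S100a8 averaged 12.18 ± 0.46 in B6 and 10.20 ± 1.48 in ICR gallbladders, and Lyz2 averaged 11.61 ± 0.33 in B6 and 10.25 ± 0.34 in ICR gallbladders (SD, n = 4 each). The 7 granulocyte genes differed between the samples numbered 1 and 2 by a median of 2.36 log2 in ICR Sox17+/- and 1.93 in ICR wild type gallbladders. Between the samples numbered 3 and 4 the median was 0.66 in B6 Sox17+/- and 0.21 in B6 wild type gallbladders. With both ICR gallbladders numbered 1 left out, the granulocyte median of B6 minus ICR was 3.20, and with both numbered 2 left out it was 0.77. That split was chosen after the values of these genes were seen, and it leaves 1 sample in each ICR gallbladder group. No pass under it counts as a test, and Lyz2 missed the threshold under both choices. In the same order the changes were 3.20 and 0.77 for S100a8, 3.26 and 1.59 for S100a9, 2.33 and 1.29 for Cd52, and 1.59 and 1.15 for Lyz2.

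Related lists had smaller medians by strain. Of 13 pan-leukocyte genes 12 were above 0, with a median of 0.63, and 0 passed in limma (6 at an unadjusted p under 0.05). Coro1a, an actin regulator of leukocytes, had 0.98 (adjusted p = 0.0572) and Ptprc, encoding CD45, had 1.10 (adjusted p = 0.113). Of 16 other granulocyte genes 14 were above 0, with a median of 0.81, and 0 passed (8 at an unadjusted p under 0.05). Fcnb had 0.96 (adjusted p = 0.0853) and Chil3, encoding a chitinase-like protein, had 1.47 (adjusted p = 0.119). Of 28 other macrophage genes only the protease gene Ctss passed, higher by 0.59 in B6 (adjusted p = 0.0202), and the median was 0.21. Unadjusted, 12 of the 28 lay under 0.05 in limma, against 12.7% of all genes. Their changes ran in both directions, from -1.23 to 0.97. Erythroid genes had a median of 0.93 and hepatocyte genes 0.40, with 0 passing in either (3 and 4 at an unadjusted p under 0.05).

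A measure of RNA quality also differed by strain. The Gapdh probe sets for the 3' end exceeded those for the 5' end by 0.0014 to 0.30 log2 in B6 gallbladders and by 0.43 to 0.93 in ICR gallbladders. For Actb these ranges overlapped, at 0.92 to 1.20 in B6 and 0.56 to 1.40 in ICR. The part of RNA quality in the strain result was not tested. The strains carry different replicate numbers, and no label gives a batch, so a batch that followed strain cannot be told apart from it. On the values as deposited neither gene passed (adjusted p = 0.0762 for Lyz2 and 0.0547 for Cd52). With 1 sample left out at a time, Lyz2 kept its call in 4 of 10 fits (adjusted p of the others 0.0556 to 0.133) and Cd52 in 4 of 10 (0.0516 to 0.161). Without either wild type B6 gallbladder or B6 Sox17+/- gallbladder 3, neither passed. Without ICR Sox17+/- gallbladder 1 or 2, Lyz2 and Cd52 also missed the threshold, whereas S100a9 passed (adjusted p = 0.0189 and 0.0496). S100a9 passed too without either cystic duct, as did Lyz2 and Cd52. These fits count among the 10 but leave out no gallbladder, so they remove no sample of the strain comparison. The threshold was also missed by Lyz2 without ICR wild type gallbladder 1 and by Cd52 without B6 Sox17+/- gallbladder 4.

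**Figure D3:**
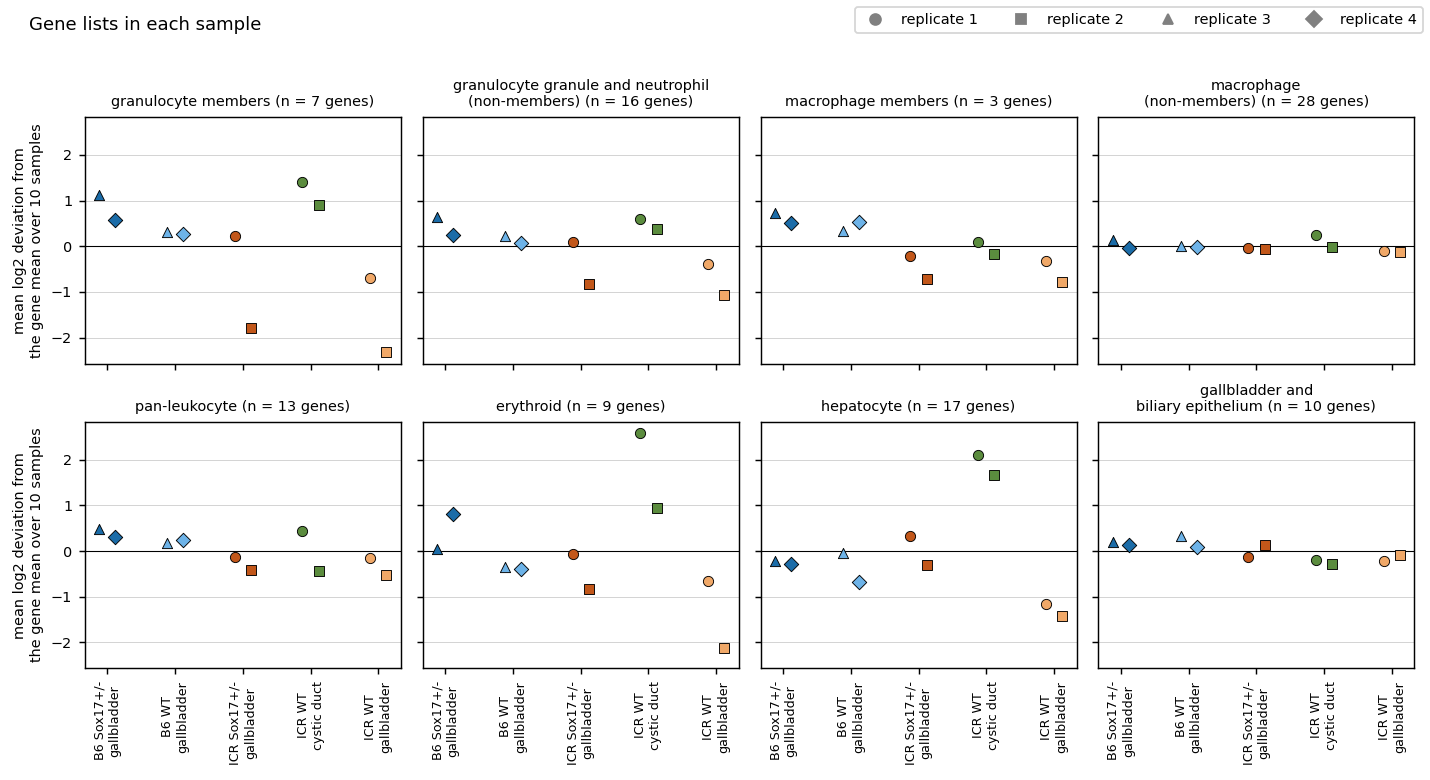
Mean log2 deviation (vertical axis) of 8 gene lists from each gene's own mean over the 10 samples, by group; points are samples and shapes give the replicate number. Granulocyte genes are high in both cystic ducts and low in the ICR gallbladders numbered 2. Erythroid and hepatocyte genes are highest in the cystic ducts. The mean of the 28 other macrophage genes stays near 0, while its single genes changed by -1.63 to 3.31 log2 by region.

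The third comparison was by Sox17 genotype in the gallbladder. It shares the ICR wild type gallbladders with the region and strain comparisons. None of the 10 genes passed over both strains, against 0.0544% of all genes tested by limma. At an unadjusted p under 0.05 there were 2 of the 10, against 522 of 14696 genes. These were S100a9, 2.33-fold higher in Sox17+/- (log2 change 1.22, SE 0.52), and Mrc1, 1.20-fold lower (-0.26, SE 0.08), each with an adjusted p of 1 in limma. After normalization, all Sox17+/- gallbladders lay above all wild type ones of their strain for S100a9 and below them for Mrc1. As deposited, ICR Sox17+/- gallbladder 2 lay below ICR wild type gallbladder 1 for S100a9 (9.06 and 9.14). The share of all genes that part in both strains was not counted, so this ordering is a description only. In B6 alone, which is a looser criterion, 20.4% of all genes had both Sox17+/- gallbladders above both wild type ones. The S100a9 change was 0.55 without ICR Sox17+/- gallbladder 1 and 1.89 without ICR Sox17+/- gallbladder 2. The Mrc1 change ran over -0.31 to -0.21 with 1 sample left out at a time.

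The other 8 genes had changes above 0 that missed the threshold, with a granulocyte median of 0.66. That median moved with 1 ICR gallbladder left out. It was 0.05 without Sox17+/- 1, 1.11 without Sox17+/- 2, 1.20 without wild type 1 and 0.19 without wild type 2. Each such fit compares the ICR genotypes with unequal replicate numbers. The granulocyte genes read higher in number 1 than in number 2, by a median of 2.36 log2 in ICR Sox17+/- and 1.93 in ICR wild type gallbladders. In B6 0 of 10 passed, against 0.0068% of all genes, and 0 had an unadjusted p under 0.05. Both B6 Sox17+/- gallbladders lay above both wild type ones for 8 of the 10 genes, against 20.4% of all genes. As the genes vary together over the samples, that count is not one of independent results. With the 4 B6 samples alone Mpo passed, as 1 of 49 genes called out of 14696. In ICR 0 of 10 passed, against 0.0068% of all genes, and S100a9 at 1.83 (adjusted p = 0.945) and Mrc1 at -0.32 (adjusted p = 0.897) were the 2 under an unadjusted 0.05. The B6 effect minus the ICR effect passed for 0 of 10 genes, and 0% of all genes did. No unadjusted p of the 10 was under 0.05 there. For S100a9 that difference was -1.22, with a 95% interval of -3.61 to 1.17. Among other cell types, erythroid genes had a median genotype change of 0.82 in B6 and 0.94 in ICR. The hepatocyte median was 0.17 in B6 and 1.35 in ICR, where limma called 0 of 17. Unadjusted, 12 of the 17 lay under 0.05 in ICR, against 5.28% of all genes. Their part in these values was not tested.

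**Figure D4:**
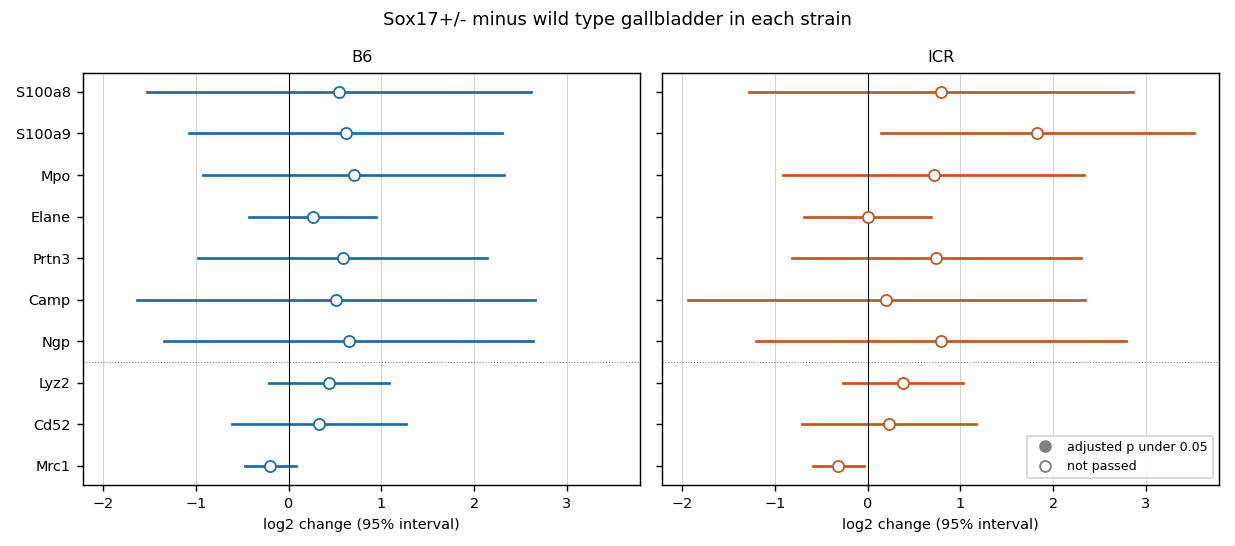
Log2 change (horizontal axis) of each gene for Sox17+/- minus wild type gallbladder in B6 (left) and ICR (right), with 95% intervals from limma. No point passed an adjusted p of 0.05, and Mrc1 lies below 0 in both strains.

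The granulocyte genes varied together over the samples. Each correlated with the mean of the others at r = 0.72 (Elane) to 0.98 (Ngp) over 10 samples, which share groups and arrays. Cd52 correlated with the granulocyte mean at r = 0.89, Lyz2 at 0.79 and Mrc1 at -0.64. The genes most like the granulocyte mean outside the 10 were Ltf (r = 0.97), encoding the secondary granule protein lactoferrin, Rhog (0.97), Lcn2 (0.97), encoding lipocalin 2 of the same granules, Mcemp1 (0.96) and Hp (0.96). Ltf spanned 5.70 to 9.67 log2 over the samples, whereas Rhog spanned 8.31 to 9.01. The genes most like the mean of Lyz2, Cd52 and Mrc1 were the chemokine gene Ccl6 (r = 0.98), Vac14 (0.94), Lrfn5 (0.94), Arhgdib (0.94) and Myo1g (0.93). Ccl6 had a log2 change of 1.08 by strain and 0.56 by region.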

How the data were processed

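The 10 samples, 2 in each of 5 groups, were measured on Affymetrix mouse arrays; groups were read from titles and label fields, in which the tags for stage and genotype are swapped. Each probe set has a deposited signal in log2, and how the authors corrected and normalized it is not given in the sources used here. No label gives an animal, litter or batch, and 0 other columns per sample were present. The array has 45101 probe sets. Without 64 controls, the platform table gives 1 gene for 34945, several for 932 and none for 9160. A gene's level is that of its brightest probe set on average, cross-hybridizing types only where no other was present. Sample medians as deposited ran over 5.51 to 6.07, so values were quantile normalized. Genes under the 30th percentile of probe set means (4.47) were left out.

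One mean per group was fitted over all samples in limma 3.58.1 (R 4.3.3) with trended empirical Bayes variances, 5 residual degrees of freedom and 7.95 in total, and adjusted by Benjamini-Hochberg over all tested genes at 0.05. Fits were tested on simulated data. Tables and plots used Python 3.11.15, pandas 2.3.3 and matplotlib 3.10.9. Of the marker lists, 11 besides the members held 166 genes, of which 138 were measured. Genes named are the members, up to 3 per list with the smallest p by strain and by region, and 5 per profile with the highest correlation; Sox17 checks the labels. The members and lists were chosen with earlier results of these data known. Alternatives were the values as deposited, no filter, every probe set, the mean of probe sets, only the compared groups, array weights, the replicate number as a block, and leaving out samples. The array count per group limits precision.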

Additional observations from a re-analysis of the deposited data

How the results depend on the processing

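The number of the 10 genes called by strain (2) was 0 on the values as deposited, 8 with array weights and 0 to 3 with 1 sample left out. By region (5) it was 3 on the values as deposited, 0 with only the compared groups, 0 with array weights and 1 to 6 with 1 sample left out. By genotype it was 0 with 1 sample left out in every genotype fit, and 1 (Mpo) in B6 with only the compared groups. As a paired analysis, the replicate block gave 9 genes called by region. Same-numbered samples correlated in their deviations at 0.38, 0.07 and 0.09 in ICR and 0.22 in B6. No label says what samples of a number share, so the main fits left the number out. The granulocyte genes were higher in number 1 than in number 2, by a median of 2.36 log2 in ICR Sox17+/- and 1.93 in ICR wild type gallbladders. The size of an effect shared by number was not tested. The block called 1720 genes of the array by region, 1 by genotype and 0 of the 10 genes by genotype; the strains share no number, so no such fit was possible for them.

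Changes that turned direction were those of Camp by genotype without ICR Sox17+/- gallbladder 1 (-0.23) or ICR wild type gallbladder 2 (-0.18; range -0.23 to 0.95), of Elane by genotype without ICR wild type gallbladder 2 (-0.050; range -0.050 to 0.31), and of Elane by strain with both ICR gallbladders numbered 2 left out (-0.13). The cause was not tested.

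Over all genes, 198 were called by strain, 60 of them higher in B6. The count was 164 (27 higher) as deposited, 1434 over every probe set, 503 with the mean of probe sets, 1311 with only gallbladders, 1602 with array weights, 8 to 1316 with 1 sample left out, and 7 and 349 with the ICR gallbladders numbered 1 or 2 left out. By region 2107 were called, 842 higher in cystic duct, and 1890 (287 higher) as deposited, 0 with only the compared groups or array weights and 821 to 7539 with 1 sample left out. As deposited, the median of all genes by region was -0.27, and -0.03 after normalization. By genotype 8 were called, and 5 with no filter, 2 over every probe set, 78 with only gallbladders, 136 with array weights and 1 to 280 with 1 sample left out. In ICR 1 was called, and up to 374 with 1 sample left out; in B6 1 was called, 49 with only the compared groups and 103 with array weights. With 2 samples a group, wide errors limit what these fits can call.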

Other observations

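Genes of other blood cell types were counted in the same limma fits, in which 5.73% of all genes rose and 8.61% fell in cystic duct (14.3% together). Of 11 genes of mast cells, eosinophils and basophils, 2 rose in cystic duct relative to ICR wild type gallbladder, with a median log2 change of 1.19. They were Gata2, a transcription factor gene of these lineages (1.19, adjusted p = 0.0255), and Mcpt8, a basophil protease gene (1.57, adjusted p = 0.0422). Of 5 lymphocyte genes, 2 rose: Vpreb1, of the pre-B cell receptor (1.66, adjusted p = 0.0154), and Nkg7, of cytotoxic cells (1.35, adjusted p = 0.0155). Of 9 genes of megakaryocytes and platelets, the platelet chemokine gene Ppbp (2.96, adjusted p = 0.0118) and the platelet receptor gene Gp9 (0.96, adjusted p = 0.0311) rose, and Vwf, which endothelium also expresses, fell by 1.97 (adjusted p = 0.0071). Of 7 monocyte genes, Klf4, which epithelia also express, fell by 2.20 (adjusted p = 0.0154) and the others did not pass, a share equal to that over all genes.

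Of 13 endothelial genes, the sinusoid receptor gene Stab2 rose by 1.43 (adjusted p = 0.0121) and Tek, an angiopoietin receptor gene, fell by 1.00 (adjusted p = 0.00839). By strain, 0 genes of these 5 lists passed in limma. At an unadjusted p under 0.05 there were 3 of the mast cell, eosinophil and basophil genes, 1 of the lymphocyte genes, 3 of the megakaryocyte genes, 3 of the monocyte genes and 4 of the endothelial genes, against 12.7% of all genes. Ppbp was nearest to the threshold, at 1.58 higher in B6 than in ICR gallbladders (adjusted p = 0.102). Of 10 genes of gallbladder and biliary epithelium, 0 passed by strain (4 at an unadjusted p under 0.05).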
